A study of Mus musculus with 13 samples.

Results

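The comparison described here is that of an estradiol pellet with no pellet in mice kept on a high-fat diet. It uses 6 of the 13 mice of the study, chosen by their group labels: 3 mice with pellet and high-fat diet (MIX) and 3 mice with high-fat diet alone (HD). All were female C57BL/6 mice ovariectomized at 6 to 8 weeks of age and then kept on their treatment for 12 weeks (3 months in another label). HD mice had the high-fat diet and no pellet, and MIX mice had the same diet with a subcutaneous pellet releasing 17-β estradiol. The study also holds 3 mice on chow without a pellet (CON) and 4 on chow with the pellet (E2), which share no mouse with MIX or HD. The endometrium was scraped from the opened uterus, so a sample is a mixture of the cells that came off, and total RNA (250 ng) was hybridised to 1 array per mouse. Ovariectomy removes the main source of ovarian estradiol in every group, controls included. No source used here gives the pellet's dose or serum estradiol.

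Estradiol acts on the endometrium mainly through estrogen receptor alpha, a transcription factor encoded by Esr1 and present in epithelium and stroma. It is known for driving the growth and secretion of the uterine epithelium and the entry of leukocytes, and sustained exposure without progesterone is known to produce squamous change of the uterine lining in rodents. In women, body fat is a further source of estrogen, through aromatase, and obesity and unopposed estrogen are both known risk factors for endometrial cancer.

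Values are log2 expression values as the authors deposited them, so a difference of 1 is a doubling. A difference is the mean of the MIX mice minus the mean of the HD mice, with its standard error (SE) from limma, group values are means ± SD, and a gene passed where its Benjamini-Hochberg adjusted p over all 65929 array features was under 0.05. The groups do not overlap where all 3 MIX mice lie on the same side of all 3 HD mice. Values ran from 1.66 to 13.8, with a median feature at 4.62, and features near or below that median may have their differences compressed. Small shifts also depend on how the arrays are scaled: over all features the median difference was -0.06 as deposited and 0.06 with each array centred on its median. Accordingly, 5.37% of 30142 gene symbols lay higher in MIX without overlap and 9.22% lower, which became 19.8% and 1.46% after median centring and 10.4% and 5.19% after a second quantile normalization. The counts without overlap in the gene lists below are to be read beside these shares.

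The arrays were those of a uterine lining. Over the 6 mice the simple epithelial keratin Krt8 lay between 10.9 and 11.6, the epithelial adhesion gene Epcam between 9.96 and 10.9, the stromal proteoglycan Dcn between 10.9 and 12.1, and Esr1 between 8.19 and 9.35. The fat cell hormone gene Adipoq was dim, at 3.07 to 3.44. The mice were not alike within MIX. MIX replicate 2 had the highest levels of the stromal and endothelial markers, and its Hoxa11, a homeobox gene of uterine stroma, was at 8.12 where the other 5 mice lay between 5.34 and 6.28. MIX replicate 3 had the highest levels of the macrophage and granulocyte markers. The mean of 4 globin features was 8.37 in HD replicate 3 and 11.1 to 11.3 in the other 5 mice. Animal codes in the titles are of 2 styles, numbered and lettered, and no source used here says what they stand for. HD replicates 1 and 2 carry numbered codes, while HD replicate 3 and all 3 MIX mice carry lettered ones. In such bulk samples, fewer cells of a type and less RNA per cell cannot be told apart.

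The pellet was accompanied on the high-fat diet by higher keratins and other genes of stratified epithelium, higher Olfm4, and lower Bmp5. Limma called 12 of 65929 features between MIX and HD, 11 higher in MIX (0.0167% of all features) and 1 lower (0.00152%), and 8387 features had an unadjusted p under 0.05. Of the 11 higher features, 9 carried named genes, 1 was a predicted gene (Gm11227) and 1 was unnamed here. The number called rested on single mice: leaving out MIX replicate 1 gave 423 calls, MIX replicate 2 gave 110 and HD replicate 3 gave 41, either of CON replicate 1 and E2 replicate 4 gave 7, and either of HD replicates 1 and 2 gave 0. It was also 0 in a fit of the 6 MIX and HD mice alone, where the spread is estimated from fewer mice, and 3 with the code style as a term in the fit.

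Olfm4, the gene of a glycoprotein that epithelia secrete, differed by more than any other gene symbol tested. It was at 4.83, 4.90 and 5.13 in the HD mice and at 9.80, 9.17 and 10.4 in the MIX mice. Olfm4 was therefore near the array median in every HD mouse and among the bright features in every MIX mouse. The difference was 4.83 (SE 0.53, adjusted p = 0.016 in limma), a ratio of 28.4, and in the chow mice Olfm4 was higher with the pellet by 3.36.

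Squamous epithelium is stratified and rests on a basal layer that expresses the transcription factor p63, encoded by Trp63, and keratins such as Krt5, Krt14 and Krt15, while Krt13 and Krt4 mark the layers above. Trp63 was at 4.39, 4.39 and 4.50 in the HD mice and at 5.27, 5.18 and 5.38 in the MIX mice. It rose by 0.85 (SE 0.07, adjusted p = 0.00503 in limma), the smallest p of all features, from a level below the array median. Krt15 was at 6.63, 6.61 and 6.41 in HD and at 9.68, 8.39 and 8.73 in MIX, a rise of 2.38 (SE 0.26, adjusted p = 0.016). Krt13 was at 6.53, 6.76 and 6.76 in HD and at 10.5, 9.30 and 10.5 in MIX, a rise of 3.42 (SE 0.37, adjusted p = 0.016). These keratins were clearly apart in the groups, with MIX replicate 2 the lowest MIX mouse for both. Krt23, another type I keratin, rose by 3.15 (SE 0.40, adjusted p = 0.0363) from 4.74 ± 0.05 (SD, n = 3) to 7.89 ± 0.82 (SD, n = 3). Krt5 was at 7.55, 7.51 and 7.05 in HD and at 11.64, 10.002 and 12.14 in MIX, and its difference of 3.89 (SE 0.52) had an adjusted p of 0.0549 in limma and did not pass.

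The other genes called higher encode regulators and a channel. Tle4, a corepressor of the Groucho family, was at 5.96, 6.00 and 6.12 in HD and at 7.02, 7.20 and 7.32 in MIX, a rise of 1.15 (SE 0.12, adjusted p = 0.0159 in limma). Vdr, the vitamin D receptor gene, was at 5.49, 5.59 and 5.78 in HD and at 6.40, 6.49 and 6.66 in MIX, a rise of 0.90 (SE 0.11, adjusted p = 0.0264). No other of the 14 measured genes of the vitamin D and calcium list passed, nor did another lie higher without overlap. P2rx4, which encodes a cation channel gated by extracellular ATP, rose by 0.95 (SE 0.12, adjusted p = 0.0374) from 7.82 ± 0.10 to 8.78 ± 0.17 (SD, n = 3 each). Tanc2, which encodes a scaffold protein, rose by 0.67 (SE 0.07, adjusted p = 0.016) from 5.67 ± 0.01 to 6.34 ± 0.02. The spread within the groups was small for these 4 genes, and none of their 3 MIX mice came near an HD mouse.

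Bmp5, a ligand of the bone morphogenetic protein family, was the only feature called lower. It was at 6.23, 6.33 and 6.35 in the HD mice and at 4.17, 4.55 and 4.20 in the MIX mice. It fell by 1.99 (SE 0.20, adjusted p = 0.0159 in limma), a ratio of 3.98, to a level below the array median. With code style as a term, the difference was -2.25 (adjusted p = 0.0095) for Bmp5 and 0.84 (adjusted p = 0.0265) for Trp63, and these were the only calls of the 12 that held. The other 8 named genes kept differences of like size with that term, but their adjusted p rose to between 0.0519 (Olfm4) and 0.204 (P2rx4). That term is estimated through 1 lettered mouse in each of HD, CON and E2. Set against HD replicate 3 alone, the lettered HD mouse, the mean of the MIX mice differed by 4.65 for Olfm4, 3.34 for Krt13, 2.52 for Krt15, 0.78 for Trp63 and -2.04 for Bmp5, with no call in that comparison.

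**Figure D1:**
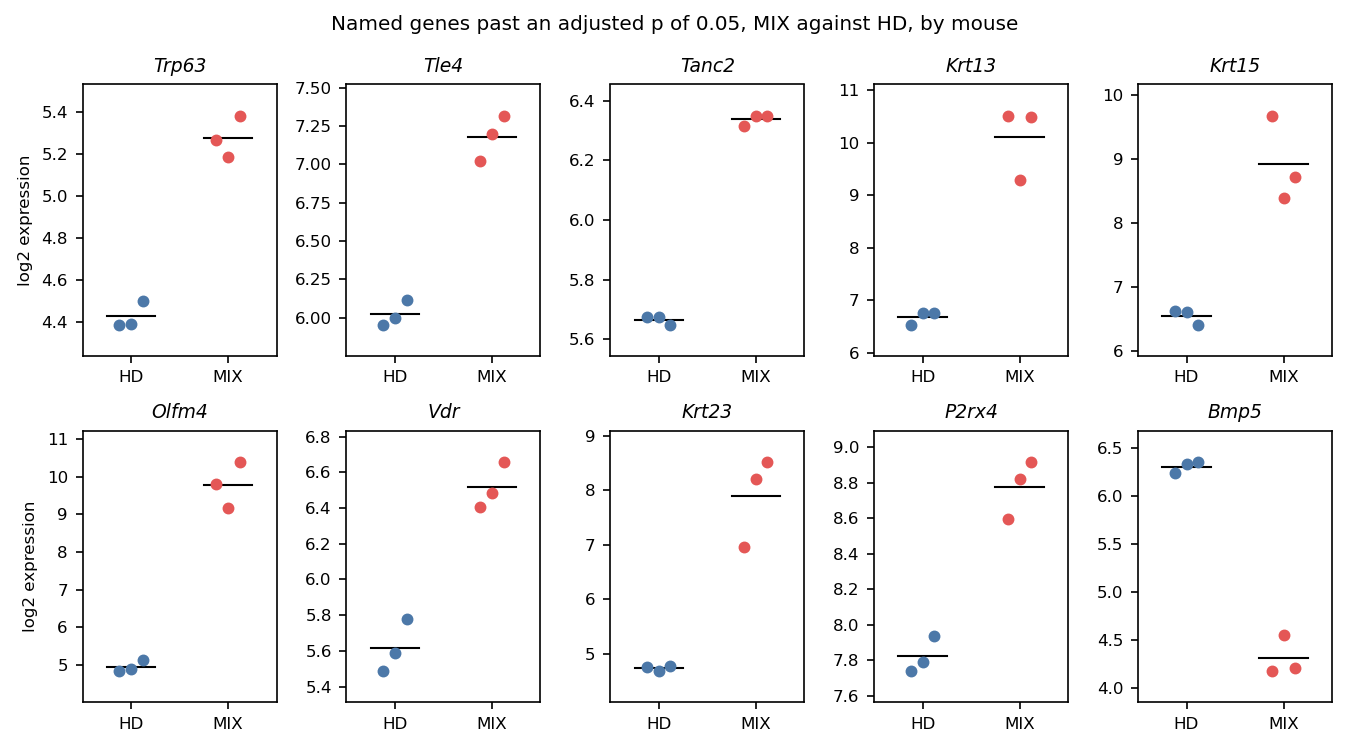
Log2 expression of the 10 named genes past an adjusted p of 0.05 in limma, in each of the 3 HD and 3 MIX mice. Points are mice, bars are group means, and each panel has its own vertical scale; in every panel the groups do not overlap, with 9 genes higher and Bmp5 lower in MIX.

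The sequences just upstream of the start of the most raised gene, Olfm4, and of the lowered gene, Bmp5, are shown because estrogen receptor alpha is known to bind a palindromic element in DNA. They are the 250 bases before the annotated start in RefSeq (GRCm38.p6), Olfm4 at chr14:80000052-80000301 and Bmp5 at chr9:75775115-75775364, both on the plus strand. Capitals mark GGTCA, a single arm of that element, on either strand.
Olfm4: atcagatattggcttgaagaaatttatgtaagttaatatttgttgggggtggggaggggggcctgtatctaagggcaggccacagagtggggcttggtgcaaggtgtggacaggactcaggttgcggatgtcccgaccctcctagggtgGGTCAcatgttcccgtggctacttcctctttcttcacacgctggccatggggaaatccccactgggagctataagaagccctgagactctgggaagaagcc
Bmp5: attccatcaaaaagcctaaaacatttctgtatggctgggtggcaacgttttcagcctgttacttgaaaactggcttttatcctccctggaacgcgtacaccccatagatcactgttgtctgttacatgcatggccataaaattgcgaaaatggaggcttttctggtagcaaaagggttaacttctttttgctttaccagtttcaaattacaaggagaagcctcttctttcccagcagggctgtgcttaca
The full palindromic estrogen response element, with 3 free bases between its arms, was found in 23 of 32851 RefSeq promoter windows (0.07%), which run from 250 bases before to 50 bases after a start. It was in none of the 30 windows held for 23 of the 30 genes that head the ranking in either direction. The arm GGTCA, on either strand, was in 40.5% of all windows and in 9 of those 30, Olfm4, Krt5, Krt13 and Krt23 included. The AP-1 element TGANTCA was in 7.81% of all windows and in 4 of the 30, those of Krt13, Prdm1 and Mannr. A match in such a window is a string of letters, and the array measured no binding.

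Beyond the called genes, 562 gene symbols had a difference of at least 1 in the direction of MIX and 68 in the direction of HD. Of these, 393 (1.3% of gene symbols) lay higher without overlap and 39 (0.129%) lower. At a difference of at least 2 the counts without overlap were 133 and 2. The genes ranked next by p after the called ones did not pass. Among those higher were Epb41l3, a membrane skeleton protein gene (1.45, SE 0.21), Akr1c21, a hydroxysteroid dehydrogenase gene (3.42, SE 0.52), and Prdm1, which encodes the repressor Blimp-1 (1.71, SE 0.26). Akr1c21 was below the array median at 3.10, 3.25 and 3.06 in HD and at 7.14, 4.87 and 7.66 in MIX.

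The largest differences without overlap, chosen after their values were seen, included several secreted products whose MIX values spread widely. Psca, a surface antigen gene of epithelia, was at 5.12, 5.28 and 7.53 in HD and at 10.8, 9.17 and 11.7 in MIX. Ppbp, which encodes a neutrophil-attracting chemokine best known from platelets, was at 6.26, 6.45 and 7.45 in HD and at 11.3, 9.73 and 12.7 in MIX. Kap, known as an androgen-regulated kidney gene, was at 3.62, 4.21 and 4.21 in HD and at 8.17, 5.06 and 10.1 in MIX. MIX replicate 2 was the lowest and MIX replicate 3 the highest MIX mouse for these 3 genes. Their adjusted p in limma was 0.151 for Psca, 0.219 for Ppbp and 0.271 for Kap, so none passed.

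On the lower side, where only Bmp5 passed, the top genes by p were Hmga2, a chromatin architecture gene of growing tissue, and Ubash3b, a phosphatase gene. Hmga2 was at 7.88, 7.54 and 7.67 in HD and at 6.69, 6.91 and 6.35 in MIX (difference -1.05, SE 0.15, adjusted p = 0.0981 in limma). Myo3b, an unconventional myosin gene, differed by -1.74 (SE 0.28), the monocarboxylate transporter Slc16a7 by -1.41 (SE 0.26), the lymphoid transcription factor Ikzf3 by -1.43 (SE 0.29) and the cyclin-dependent kinase Cdk14 by -0.97 (SE 0.18). Hs3st3b1, a heparan sulfate sulfotransferase gene, was at 6.99, 7.01 and 7.10 in HD and at 6.39, 6.36 and 6.19 in MIX. Mannr, a long non-coding RNA, was at 9.10, 8.71 and 8.97 in HD and at 7.33, 7.16 and 6.03 in MIX. The adjusted p of these 6 genes lay between 0.122 and 0.178. The ranking also held Rpia, Kctd15, Ctnnal1, Kti12, Zswim5 and the homeobox gene Barx2, with differences between -0.63 and -0.43. Topaz1, picked for its size after the values were seen, had the most negative difference, from 7.92, 7.26 and 6.76 in HD to 4.53, 4.86 and 4.44 in MIX (adjusted p = 0.275).

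The mice on chow give the same pellet difference in other animals, although all arrays were normalised together. There limma called 0 features (0%) for the pellet, and 2636 had an unadjusted p under 0.05. Of the 393 genes higher in MIX by at least 1 without overlap, 355 (90.3%) had a positive E2 minus CON difference, against 50% of all 30142 gene symbols. Of the same 393 genes, 156 lay higher in the 4 E2 mice without overlap and 0 lower, where 3.84% of all gene symbols lay higher without overlap. Of the 39 genes lower in MIX by at least 1, 36 had an E2 minus CON difference that was not positive, and 6 lay lower without overlap, as did 3.09% of all gene symbols. The 10 gene symbols called higher between MIX and HD (0.0332% of gene symbols, Gm11227 included) all had a positive difference on chow, and 6 lay higher there without overlap. Bmp5, the 1 gene symbol called lower (0.00332%), had a chow difference of -0.71, with overlap.

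The sizes on the 2 diets stood apart for some of the called genes, but no feature passed the test of that difference. Krt13 differed by 3.42 on the high-fat diet and by 1.63 on chow, Krt15 by 2.38 and 0.85, and Tle4 by 1.15 and 0.20. Trp63 was higher by 0.85 on the high-fat diet and by 0.00 on chow, and its interaction, the first difference minus the second, had the lowest adjusted p, 0.131 in limma. The interaction was called for 0 of 65929 features, with 3035 at an unadjusted p under 0.05. Leaving out MIX replicate 2 gave 5 calls, and leaving out MIX replicate 3 gave 2. The called genes were also picked by their difference on the high-fat diet, which is part of the interaction, so the choice itself favours a smaller difference on chow. A larger pellet difference on 1 diet is therefore given here as values only.

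**Figure D2:**
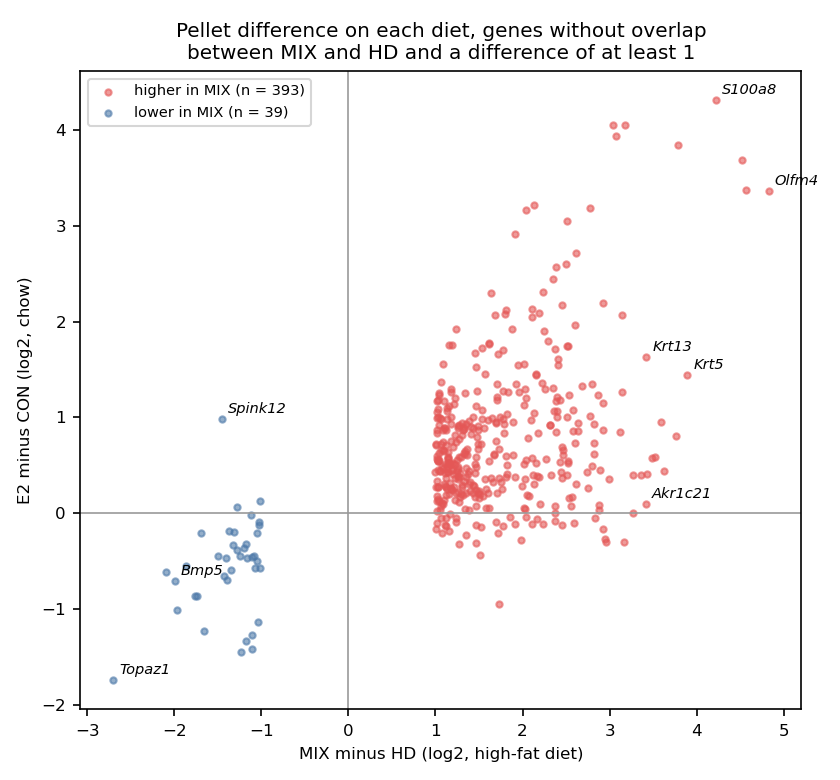
The difference of MIX from HD (horizontal, log2) against the difference of E2 from CON (vertical, log2) for the 393 genes higher and the 39 genes lower in MIX by at least 1 without overlap between MIX and HD. Each point is a gene; 355 of the 393 higher genes lie above the horizontal zero line, which marks no difference on chow.

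Of the classic uterine estradiol genes chosen by name, Ltf, Lcn2, Greb1, Pgr and Esr1 were bright in both groups and did not separate. Olfm4, chosen with them, passed as given above, and C3, also chosen, has no value here. Ltf, which encodes lactoferrin, was at 12.2, 12.7 and 13.1 in HD and at 13.2, 12.6 and 13.3 in MIX, with a difference of 0.34 (SE 0.24). Its values lay near the highest on the arrays, 13.8, where differences may also be compressed. Lcn2, the lipocalin 2 gene, differed by 0.01 (SE 0.23), the estrogen receptor cofactor Greb1 by -0.06 (SE 0.22), the progesterone receptor Pgr by -0.43 (SE 0.41) and Esr1 by -0.31 (SE 0.26). None of these 5 passed, their groups overlapped, and their adjusted p lay between 0.549 and 0.987 in limma. The signs of Greb1 and Lcn2 were not stable: Greb1 was 0.07 after median centring and 0.10 without MIX replicate 3, and Lcn2 -0.09 without that mouse.

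Over all gene symbols, 5.37% lay higher in MIX without overlap and 9.22% lower. Of 38 measured genes listed as estradiol targets of uterine epithelium, 1 passed (Olfm4) and 7 lay higher in MIX without overlap, with 0 lower. The others included Agr2, a secretory pathway disulfide isomerase, at 5.56, 6.17 and 6.22 in HD and at 10.6, 9.56 and 7.10 in MIX. The serine protease gene Prss22 was at 7.26, 6.88 and 6.96 in HD and at 9.43, 8.01 and 12.0 in MIX. Clca3a1, of the calcium-activated chloride channel regulators, differed by 1.95 (SE 0.59). After median centring 8 of the 38 lay higher and 0 lower, beside 19.8% and 1.46% of all gene symbols. The list's median difference was 0.33, against -0.04 over all gene symbols. Leaving out MIX replicate 3 gave 0.14 and leaving out HD replicate 1 gave 0.11. Of 16 measured steroid receptor and coregulator genes, Tle4 passed, and Foxa1, a pioneer factor of hormone-responsive epithelia, was at 5.70, 5.73 and 5.99 in HD and at 8.93, 6.88 and 8.82 in MIX. The second estrogen receptor gene, Esr2, which was close to the array median, differed by -0.20 (SE 0.08).

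The 2 squamous lists held 3 of the called genes. Of 22 measured basal squamous genes, 2 passed (Trp63 and Krt15) and 9 lay higher in MIX without overlap with 0 lower, where 5.37% of all gene symbols lay higher. The 9 included Krt5, Krt14, the desmosome genes Dsc3, Dsg3 and Pkp1, and Trim29. Their list median was 0.69, and it stayed between 0.52 and 0.84 over the 10 alternatives run for the lists. Of 38 measured genes of differentiated squamous layers, 1 passed (Krt13) and 11 lay higher without overlap, among them the surface protein gene Ly6d (3.15, SE 0.56), the cornified envelope genes Cnfn (2.39, SE 0.60) and Sprr1a (2.36, SE 0.72), and Krt4. The kallikrein gene Klk7 lay lower by 0.13 without overlap, which it did not do under either other scaling. The median of this list was 0.34, falling to 0.16 without MIX replicate 1 and reaching 0.57 without MIX replicate 2.

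Among the MIX mice, both squamous lists were lowest in replicate 2. The level of a list in a mouse is the mean over its genes of the log2 value minus that gene's mean over all 13 mice. For the basal list it was -0.36, -0.32 and -0.18 in HD and 0.78, 0.12 and 0.94 in MIX. The stromal markers were highest in MIX replicate 2, at -0.54, 1.12 and 0.43 in MIX and at -0.36, -0.12 and -0.15 in HD. From MIX replicate 1 to MIX replicate 3 both the basal and the stromal level rose. The part of cell makeup in the squamous difference was not tested. The simple columnar epithelium list, with 27 measured genes, did not separate, with 1 gene higher without overlap (Ehf), 1 lower (Wfdc2) and a median of -0.08 that changed sign without MIX replicate 2 (0.08) and after median centring (0.04).

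In the lists of mucins, channels, mucosal defence and the unfolded protein response, no gene passed. Beside their counts stand 5.37% of all gene symbols higher and 9.22% lower without overlap, or 19.8% and 1.46% after median centring. Of 13 measured mucin genes, 4 lay higher without overlap and 1 lower, and 6 had a negative difference. The mucin median of 0.12 became -0.01 when MIX replicate 3 was left out and was 0.41 when MIX replicate 2 was. The higher ones included Muc5b, at 5.27, 5.32 and 5.67 in HD and at 8.19, 5.94 and 7.61 in MIX, and Muc13 (2.77, SE 0.82). Of 32 measured water and ion channel genes, 6 lay higher and 2 lower without overlap, which became 14 and 0 after median centring. The epithelial sodium channel subunit Scnn1a was at 6.76, 6.19 and 6.36 in HD and at 7.49, 7.12 and 7.79 in MIX, and the chloride channel Ano1 differed by 1.48 (SE 0.23). Cftr, the chloride channel mutated in cystic fibrosis, was at 9.17, 9.14 and 9.61 in HD and at 9.02, 7.01 and 7.78 in MIX. The hydrogen peroxide-producing oxidase Duox2 (2.52, SE 0.57) and its maturation factor Duoxa2 (2.82, SE 0.62) were among 4 of 25 mucosal defence genes that lay higher without overlap. Of 28 genes of the unfolded protein response, the stress pathway of the secretory route, 8 lay higher and 0 lower, including Herpud1 (1.08, SE 0.25), Xbp1 and Atf6, with a list median of 0.19.

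Mesothelium covers the outside of the uterus, and the samples were scraped from the inside. Its markers lay higher in MIX. Of 15 measured markers, 9 lay higher without overlap, against 5.37% of all gene symbols, and 0 lower, with a median of 0.68. Mesothelin, Msln, was at 7.51, 7.74 and 7.93 in HD and at 8.19, 8.71 and 9.42 in MIX. The list level was -0.23, -0.15 and -0.18 in HD and 0.21, 0.48 and 0.56 in MIX. On chow the list median was 0.78, with 8 of 15 higher without overlap. Several of these genes, such as Muc16 and Bnc1, also stand in an epithelial list, and none passed.

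**Figure D3:**
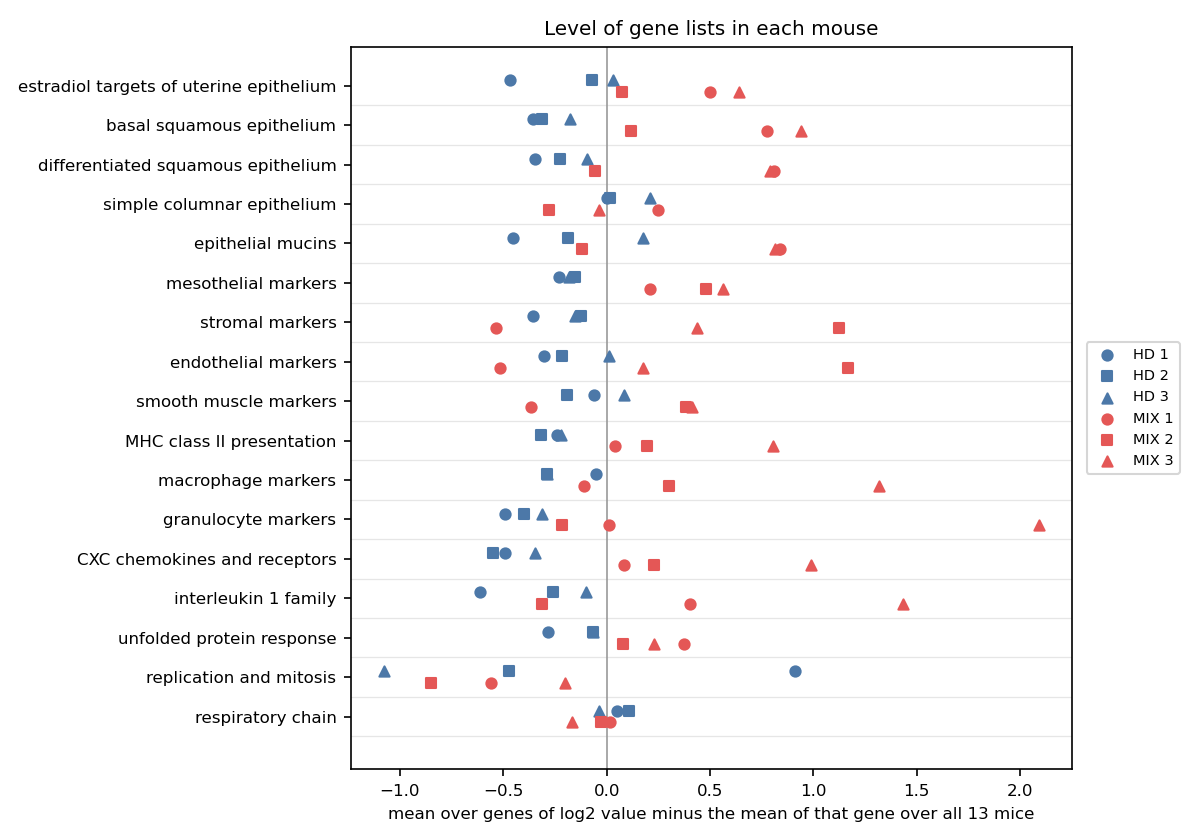
Level of 17 gene lists in each of the 3 HD (blue) and 3 MIX (red) mice, as the mean over genes of the log2 value minus the mean of that gene over all 13 mice; circles, squares and triangles are replicates 1, 2 and 3. The estradiol target, both squamous, mesothelial, MHC class II, granulocyte, CXC chemokine and unfolded protein response levels do not overlap between the groups; the stromal and endothelial lists are highest in MIX replicate 2 and the granulocyte list in MIX replicate 3.

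Genes of antigen presentation lay higher in MIX, while the level of the macrophage markers overlapped between the groups. Both levels were highest in MIX replicate 3, and no gene of either list passed. Of 15 measured genes of MHC class II presentation, by which cells show peptides to CD4 T cells, 8 lay higher without overlap and 0 lower. Over all gene symbols, 5.37% lay higher without overlap and 9.22% lower. H2-Ab1 was at 8.66, 8.43 and 8.26 in HD and at 9.35, 9.64 and 10.5 in MIX. H2-DMb1, another class II gene, was at 6.12, 6.01 and 6.51 in HD and at 7.53, 7.12 and 8.43 in MIX. The median of this list was 0.46, and 0.38 without MIX replicate 3. Of 35 macrophage markers, 6 lay higher and 1 lower without overlap, with a median of 0.61 that was 0.16 without MIX replicate 3, and 0.93 without the first MIX mouse. The macrophage list level was -0.05, -0.29 and -0.29 in HD and -0.11, 0.30 and 1.32 in MIX, so these groups overlapped. After median centring 7 of the 35 macrophage markers and 10 of the 15 class II genes lay higher, beside 19.8% of all gene symbols. On chow 24 of the 35 macrophage markers lay higher with the pellet without overlap.

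Granulocyte markers showed the same dependence on MIX replicate 3. The shares of all gene symbols without overlap were 5.37% higher and 9.22% lower, or 19.8% and 1.46% after median centring. S100a8, a calcium-binding protein gene of neutrophils, was at 4.35, 3.62 and 4.64 in HD and at 8.10, 5.82 and 11.4 in MIX, and its partner S100a9 differed by 3.78 (SE 1.12). Of 26 measured markers, 6 lay higher without overlap and 0 lower, and the median of 0.92 was 0.10 without MIX replicate 3, and 1.46 without the first MIX mouse. Of 22 CXC chemokine and receptor genes, 7 lay higher and 0 lower, with a median of 0.61 and 0.27 without MIX replicate 3. They included the neutrophil attractant Cxcl5, at 5.50, 5.76 and 5.79 in HD and at 8.46, 6.58 and 10.8 in MIX, the interferon-induced Cxcl9 (2.46, SE 0.76) and the receptor Cxcr6 (1.79, SE 0.42).

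Within the interleukin 1 family the ligands Il33 and Il1b lay higher in MIX and the signalling receptor Il1r1 lower. Il33, an alarmin of epithelial and stromal nuclei, was at 6.55, 6.60 and 6.30 in HD and at 8.60, 8.20 and 9.93 in MIX. Il1b was at 5.54, 5.46 and 6.22 in HD and at 7.94, 6.71 and 11.7 in MIX. The decoy receptor Il1r2 differed by 2.29 (SE 0.88), while the signalling receptor Il1r1 was at 9.01, 9.38 and 8.93 in HD and at 7.83, 8.06 and 8.10 in MIX. Of 19 measured members, 7 lay higher and 3 lower without overlap, and with an adjusted p of 0.129 for Il33 and 0.323 for Il1r1 in limma none passed. Of 20 complement genes, 5 lay higher and 0 lower, including C4b (1.22, SE 0.29) and clusterin, Clu, at 9.20, 9.10 and 9.34 in HD and at 10.6, 10.5 and 10.8 in MIX. The complement median of 0.52 was 0.17 without MIX replicate 3.

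Antibody genes were higher in MIX than in HD, a pattern picked out after the values were seen. Of 113 measured heavy chain variable segments, 105 had a positive difference and 53 lay higher without overlap, with 1 lower. Of 86 kappa segments, 81 had a positive difference, 38 lay higher and 0 lower. The share of all gene symbols higher without overlap was 5.37%. After median centring 67 heavy chain and 50 kappa segments lay higher, beside 19.8% of all gene symbols. Segments share sequence, so probes of related ones can pick up the same transcripts and they are not independent. The median level of the heavy chain segments was 4.25, 4.38 and 4.78 in the HD mice and 4.83, 5.99 and 7.33 in the MIX mice, so MIX replicate 1 lay just above HD replicate 3. The CON and E2 mice lay between 4.54 and 5.84, every one above HD replicates 1 and 2, and the E2 minus CON median over these segments was -0.003. No segment passed in limma. An unadjusted p under 0.05 was held by 68 heavy chain and 49 kappa segments, and by 8387 of all 65929 features. Of 15 measured B cell markers, 4 lay higher without overlap and 0 lower, and 5 had a negative difference. Their median of 0.115 was 0.05 without MIX replicate 3, 0.26 without the first mouse of that group and 0.24 after median centring. Jchain, a member of that list, which joins secreted IgA and IgM, was at 4.11, 4.60 and 4.77 in HD and at 5.21, 6.67 and 7.66 in MIX. Of 28 T and NK cell markers, 6 lay higher without overlap, among them Cd3e (1.19, SE 0.32). Of 85 T cell receptor alpha variable segments 0 lay higher and 8 lower, the latter a share near the 9.22% of all gene symbols.

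**Figure D4:**
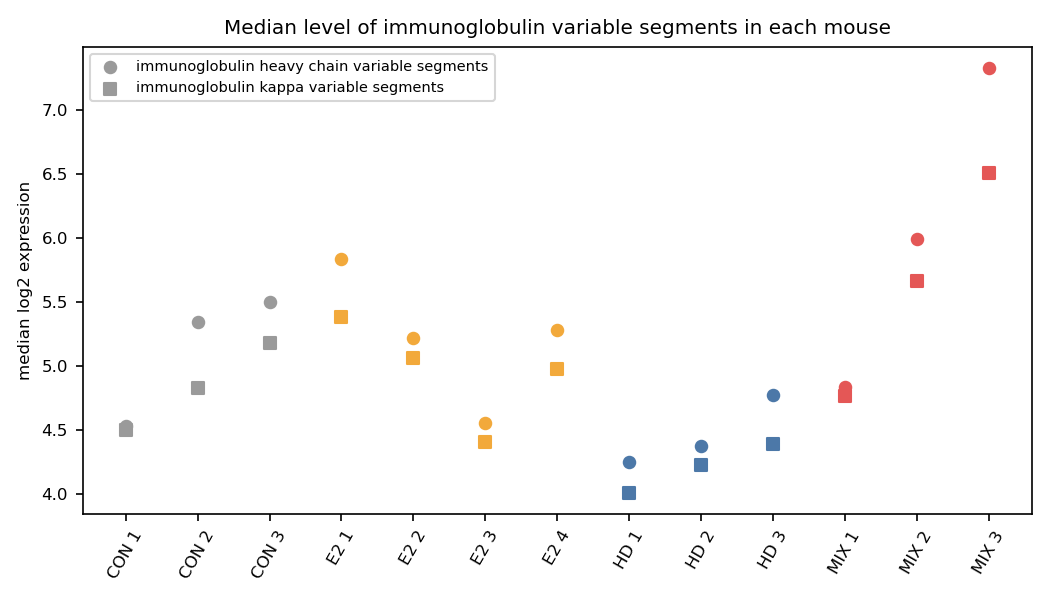
Median log2 expression of 113 immunoglobulin heavy chain (circles) and 86 kappa (squares) variable segments in each of the 13 mice, by group. The 3 HD mice hold the lowest levels of the kappa segments, and MIX replicates 2 and 3 the highest of both kinds.

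Stromal and endothelial markers were highest in MIX replicate 2, and smooth muscle markers in MIX replicates 2 and 3. Of 21 stromal markers 1 lay higher without overlap (the transcription factor Tcf21), and of 19 endothelial and 18 smooth muscle markers 0 did in either direction. The endothelial median of 0.41 was -0.06 without MIX replicate 2, 0.71 without the first mouse of that group and 0.26 without HD replicate 1. The stromal median of 0.49 became 0.15 and 1.006 when the same MIX mice were left out. Signalling ligands of the stroma and epithelium were mixed. Of 42 BMP and activin pathway genes, Bmp5 passed, 8 lay higher without overlap and 3 lower, the receptors Bmpr1a and Acvr2a among the lower, and Bmp3 (0.87, SE 0.22) and Tgfb3 (0.94, SE 0.20) among the higher. Of 47 Wnt ligands, receptors and inhibitors, 5 lay higher and 7 lower, which became 11 and 1 after median centring. The shares over all gene symbols were 5.37% and 9.22%, and 19.8% and 1.46% after median centring. The secreted Wnt antagonist Frzb was at 5.71, 5.76 and 6.07 in HD and at 6.82, 7.12 and 7.74 in MIX, and the epithelial ligand Wnt7a at 8.50, 8.19 and 7.68 and at 6.79, 7.19 and 7.47.

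Genes of cell division did not separate. Of 38 replication and mitosis genes 0 passed and 0 lay apart in either direction, and 34 had a negative difference. The list level was 0.91, -0.47 and -1.08 in HD and -0.56, -0.85 and -0.20 in MIX, so HD replicate 1 was highest and HD replicate 3 lowest of these 6 mice. The median of -0.27 became 0.25 without HD replicate 1, -0.81 without HD replicate 3 and 0.03 with code style as a term. The cyclin-dependent kinase inhibitor Cdkn1a differed by 0.83 (SE 0.47) without overlap. Of 26 glycolysis and hypoxia genes, 6 lay higher and 0 lower, including Adm (1.53, SE 0.47) and Pfkp, with a median of 0.33 that was 0.63 without MIX replicate 2 and 0.53 with code style as a term. Of 30 respiratory chain genes, 0 lay higher and 5 lower, which became 4 and 1 after median centring. Of 26 fatty acid and cholesterol synthesis genes, 3 lay higher without overlap, the desaturases Fads1 (1.18, SE 0.29) and Fads2 (1.15, SE 0.34) and the elongase Elovl1. Their count was again 3 after median centring, and the list median of 0.08 was -0.055 without HD replicate 3. Over all gene symbols, 5.37% lay higher without overlap and 9.22% lower as deposited, and 19.8% and 1.46% after median centring.

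Other lists held single genes with clear separation, none of which passed. Beside the counts of these lists stand 5.37% of all gene symbols higher and 9.22% lower without overlap, or 19.8% and 1.46% after median centring. Alox12, a lipoxygenase gene in the prostaglandin and eicosanoid list, was at 5.63, 5.56 and 5.78 in HD and at 6.78, 7.04 and 7.84 in MIX (difference 1.56, SE 0.24, adjusted p = 0.112 in limma). Hey1, a Notch target, was at 5.92, 5.78 and 5.92 in HD and at 6.67, 7.78 and 7.14 in MIX. Both sets of mice were well apart, and on chow the differences were 0.36 for Alox12 and 0.34 for Hey1. Of 21 genes of cholesterol efflux and lysosomal lipid handling, all 21 had a positive difference and 4 lay higher without overlap, led by the lysosomal lipase Lipa (1.06, SE 0.23). Of 12 interferon-induced GTPase genes, all 12 had a positive difference and 3 lay higher without overlap, including Gbp2 (1.61, SE 0.51). The GTPase count was again 3 after median centring. Their list levels overlapped, with HD replicate 3 at 0.03 and MIX replicate 2 at -0.11. Of 25 matrix metalloproteinases, inhibitors and related proteases, 6 lay higher and 1 lower, with Mmp2 (1.33, SE 0.45) and Adam8 (1.82, SE 0.67) among the higher. The median of this list was 0.52, and 0.18 without MIX replicate 3. Its level in MIX replicate 1, -0.21, lay among the HD levels. Acod1, which makes itaconate, stands in the progesterone target list and differed by 3.08 (SE 0.87), and on chow by 3.94. Among heparan sulfate genes, the sulfotransferases Hs3st3a1 (-0.39, SE 0.10) and Hs3st3b1 lay lower, while the glypicans Gpc3 (1.26, SE 0.33) and Gpc4 (1.02, SE 0.28) lay higher.

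Across all 63 gene lists, 46 had more members higher than lower without overlap as deposited, and the genes that passed within lists were those already named. Over all gene symbols, 5.37% lay higher and 9.22% lower as deposited, and 19.8% and 1.46% after median centring. Some lists share members, and they were chosen with earlier results of these data known, so the count of lists is a description only.

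Small RNA genes are represented on the array, which reads their precursors and host transcripts as well as the mature forms. The microRNA genes nearest to passing on the lower side without overlap were Mir341, Mir758 and Mir763. Mir763 lies within Hmga2, which was itself lower, and Mir341 within the non-coding RNA Rian, while Mir758 overlaps no annotated gene. The mature sequences of these microRNAs in RefSeq (GRCm38.p6) follow, with the seed, bases 2 to 8, in capitals.
mmu-miR-763: cCAGCUGGgaagaaccaguggc
mmu-miR-341-5p: cGGUCGGCcgaucgcucgguc
mmu-miR-341-3p: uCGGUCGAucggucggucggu
mmu-miR-758-5p: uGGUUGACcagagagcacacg
mmu-miR-758-3p: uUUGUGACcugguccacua
These 5 sequences share no seed. Mir763 was at 7.17, 7.64 and 6.85 in HD and at 6.23, 6.24 and 6.58 in MIX, Mir341 at 7.68, 8.06 and 7.50 and at 6.96, 7.21 and 7.09, and Mir758 at 6.23, 6.11 and 6.20 and at 5.70, 5.69 and 5.66. The adjusted p in limma was 0.249, 0.185 and 0.229, so none passed. Mir100hg, the host transcript of Mir100, Mir125b-1 and Mirlet7a-2, differed by -1.34 (SE 0.31, adjusted p = 0.221). Of 595 microRNA genes, 124 lay lower and 12 higher without overlap as deposited, which became 35 and 54 after median centring, so no direction is read for the class.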

How the data were processed

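Whole-endometrium RNA of 13 mice was measured on 1 array each. The authors deposited log2 values per array feature. RMA, which the submitters' processing notes name, corrects background, equalises the distributions of all arrays together and summarises probes. No source used here gives its version or the array's genome build. Of 65929 features, 30604 carried 1 gene symbol in the supplied annotation, 2146 several, and 33179 were unnamed here; 827 symbols were updated through their Entrez identifiers. A symbol was represented by its feature with the highest mean.

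All 13 mice entered 1 fit of 4 group coefficients with no covariate (lmFit and eBayes, limma 3.58.1, R 4.3.3), two-sided, tested on simulated data. CON and E2 add only to the estimated spread. Labels name separate mice but no cage or litter. The number of arrays limits the precision.

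Named genes were the 15 smallest p in each direction without overlap, called ones first and without predicted genes or receptor segments. Added to these were up to 4 members per described list and the leading non-coding genes. Esr1, Pgr, Ltf, Lcn2, C3, Greb1 and Olfm4 were chosen by name. Other list members were named after their values were seen. The comparison, the 63 gene lists and the rules were chosen with earlier results of these data known. Alternatives were other normalizations, filters, spread models, covariates and leaving out each mouse.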

Additional observations from a re-analysis of the deposited data

Results flagged for a closer look

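In 2 named genes, 1 of the 4 E2 mice stood apart from the other 3. E2 replicate 1 had an Ablim3 value of 6.87, the highest of the group, and E2 replicate 2 a Greb1 value of 7.03, the lowest. Chance alone marks about 1 in 20 groups in this way, and both mice belong to the chow groups, which do not enter the difference of MIX from HD. For 3 named genes the pellet differences on the 2 diets had opposite signs, without overlap on either diet. Klf10, a Kruppel-like factor, was higher by 0.51 in MIX than in HD and lower by 0.52 in E2 than in CON, an interaction of 1.03 (SE 0.20). Ephx1, an epoxide hydrolase gene, differed by 0.55 and -0.54, an interaction of 1.09 (SE 0.28). Sel1l, of the degradation pathway of the endoplasmic reticulum, differed by 0.32 and -0.12, an interaction of 0.44 (SE 0.14). Each interaction had an adjusted p of 0.929 in limma over all features, so none passed.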

How the results depend on the processing

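The count of 12 features called between MIX and HD in limma became 3 with a code style term, 0 in the 6 mice alone, 0 within the lettered codes (1 HD mouse, assumed to vary like the others) and 24 with array weights, and ran from 0 to 423 over the leave-outs of single mice. With replicate number as a block it was 3, of which 2 were among the 12. Deviations of same-numbered HD and MIX mice correlated at -0.10, 0.14 and 0.21. The animal codes of HD replicate 3 and MIX replicate 3, the pair at 0.21, end in the same letter and number, which no label explains. Whether same-numbered mice share a cage or a day of handling was not tested. The interaction count of 0 became 1 with array weights, and 0 to 5 over the leave-outs. Within the lettered codes the sign turned for Ltf (-0.084), Pgr (0.283) and Lcn2 (-0.241), and for Greb1 with array weights (0.094) and median centring (0.066). Over the leave-outs Esr1 ran from -0.528 to 0.051, Greb1 from -0.259 to 0.10 and Lcn2 from -0.173 to 0.175. With 3 mice a group, smaller differences cannot be resolved.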
